A study of Mus musculus with 6 samples.

Results

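The insulin-like growth factor (IGF) genes described here are the ligand genes Igf1 and Igf2, the receptor genes Igf1r and Igf2r, and 6 binding protein genes, Igfbp2 to Igfbp7. They were taken by symbol from a table of 32973 genes, in which all 10 had a row. Polyadenylated RNA was sequenced from primary mouse muscle stem cells, sorted from skeletal muscle by flow cytometry and grown for 3 days on collagen in growth medium containing serum and bFGF, a fibroblast growth factor. Med23KO cells had the genotype Med23flox/flox::Pax7CreERT2 (3 libraries), in which the Pax7 gene, active in muscle stem cells, drives a Cre recombinase that tamoxifen switches on. Ctrl cells had the genotype Med23flox/flox (3 libraries), so the loxP-flanked Med23 alleles were common to all cells and the Cre was carried by Med23KO cells alone. Effects of the Cre and of the loss of Med23, a subunit of the Mediator coactivator complex, cannot be told apart. The sources used here give no age, no tamoxifen schedule, no list of the exons removed, and no word on whether libraries came from separate animals or cultures. Each p-value is therefore set against the variation among these libraries alone, and that variation may be technical.

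IGF-I and IGF-II are secreted ligands of the receptor tyrosine kinase encoded by Igf1r, which signals through insulin receptor substrates, PI3-kinase, AKT and mTOR. In muscle, this pathway drives the growth and differentiation of myoblasts, and Igf2 is known as a ligand that differentiating mouse myoblasts make for themselves. The Igf2r product, also the mannose 6-phosphate receptor for lysosomal enzymes, takes up IGF-II and delivers it for breakdown. The binding proteins hold the ligands outside the cell and can either restrain them or deliver them to the receptor. In the mouse, Igf2 is an imprinted gene read from the paternal copy, and Igf2r one read from the maternal copy.

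Levels are in FPKM, a fragment count corrected for transcript length and for sequencing depth. How many reads lie behind a value is not known. Med23 itself had 5.10, 5.86 and 4.23 FPKM in the Med23KO libraries 1, 2 and 3, against 10.4, 11.7 and 10.2 FPKM in the Ctrl libraries (limma adjusted p = 0.0197, and 0.00869 to 0.108 with 1 library left out). Libraries numbered 3 stood apart in both groups. Med23KO library 3 was the lowest of its group for 8 of the 10 IGF genes and for 56.2% of the 12336 genes tested, and Ctrl library 3 was the lowest of its group for 7 of the 10 and for 47.1% of all tested. For the IGF genes and the pathway genes named, values without these libraries are given where they change the call. Muscle stem cell and myoblast markers (Pax7, Myod1, Des and 6 others) summed to 1096 to 1829 FPKM in Med23KO and 1249 to 1899 FPKM in Ctrl libraries, so the labelled cell type was present in each. Ptprc, which marks blood cells, was at or below 0.0896 FPKM in every library.

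Of the 10 genes, 2 rose in Med23KO cells and 0 fell, by a limma test over 12336 genes with Benjamini-Hochberg adjusted p under 0.05. At an unadjusted p under 0.05, 4 were higher and 0 lower. The share of all genes at that unadjusted threshold is not given here, for this count or for those of the lists below. Across all genes tested, 2.91% passed the adjusted threshold in either direction, 1.49% higher and 1.42% lower (184 and 175 genes). These became 363 higher and 205 lower with libraries scaled to equal medians, 298 and 201 under quantile normalization, and 489 and 157 after rescaling without the abundant RNA gene Rmrp. The genes that rose were the ligand gene Igf1 and the binding protein gene Igfbp7. In 4 of the 10, Igf1, Igf2, Igf2r and Igfbp7, each Med23KO value lay above each Ctrl value, while 24.7% of all genes tested had groups that did not overlap in either direction (1233 genes higher and 1813 lower). Log2 fold changes were above 0 in 7 of the 10, with a median of 0.42, while 45.1% of all tested genes were above 0, with a median of -0.03. Igf1 entered the test only through its Med23KO values, since a gene needed 1 FPKM or more on average across the libraries.

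**Figure D1:**
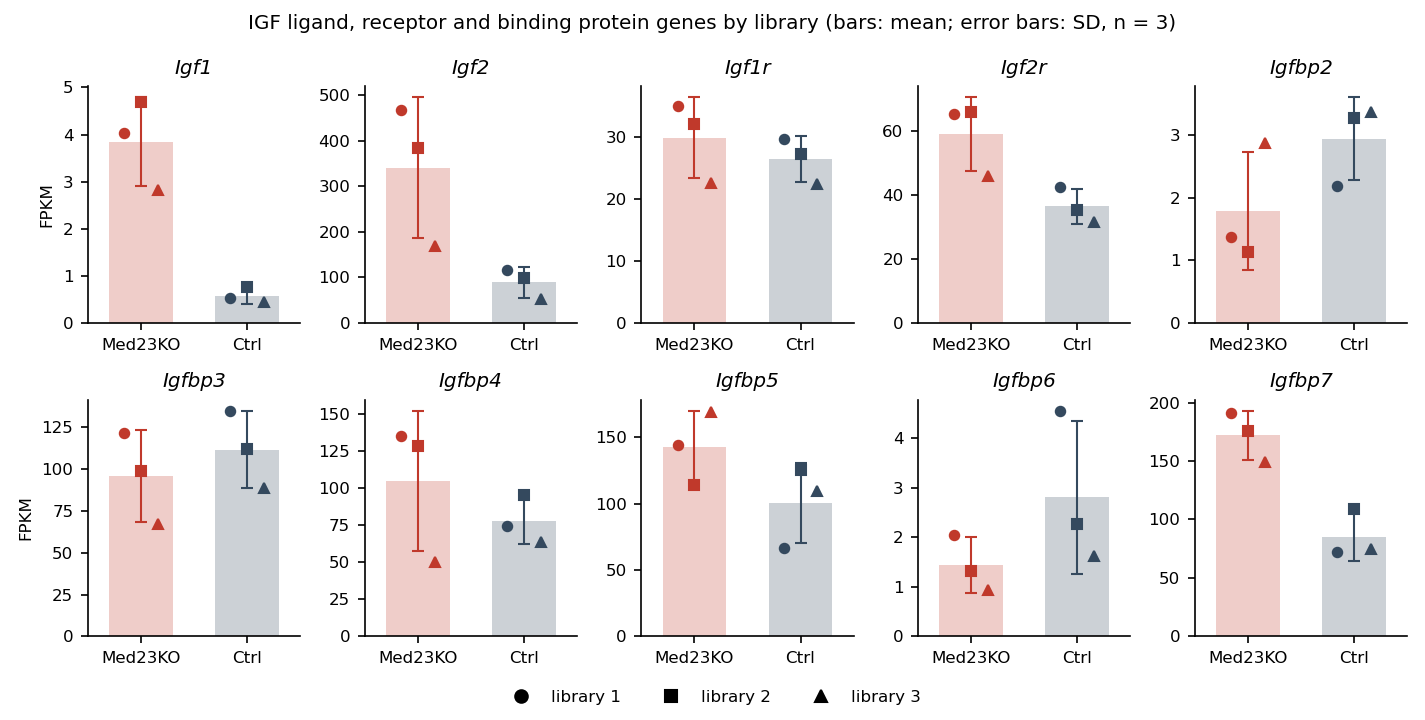
FPKM of each IGF gene in each library, with Med23KO on the left and Ctrl on the right of each panel; each panel has its own axis from 0, points are libraries, bars are means and error bars are SD (n = 3). The groups are apart in Igf1, Igf2, Igf2r and Igfbp7, and the triangles of library 3 lie lowest in most panels.

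Igf1 was the least abundant of the 10 genes in Ctrl cells and rose several-fold in Med23KO cells. It had 4.04, 4.69 and 2.83 FPKM in Med23KO libraries 1, 2 and 3, against 0.531, 0.768 and 0.434 FPKM in Ctrl libraries. The lowest Med23KO value was thus well above the highest Ctrl value. Group means were 3.85 ± 0.940 FPKM in Med23KO and 0.578 ± 0.172 FPKM in Ctrl cells (SD, n = 3 each), a ratio of means of 6.67. The log2 fold change of FPKM + 1 was 1.61 (SE 0.186, 95% interval 1.17 to 2.04, limma adjusted p = 0.0125). Adding 1 FPKM shrinks the change of so low a gene, and with a pseudocount of 0.1 the value was 2.54. The call was lost without Med23KO library 1 (adjusted p = 0.0534), Med23KO library 2 (0.0798) or Ctrl library 2 (0.0766). The gene lies on mm10 chromosome 10, positions 87858265 to 87937042, plus strand. The value covers all its transcripts, so the known classes of Igf1 mRNA that differ in their first exons or in their E peptide are not told apart.

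Igf2 had the highest mean of the 10 genes in Med23KO cells, although Igfbp5 was slightly above it in library 3, and had the largest log2 fold change of FPKM + 1 among them, but it missed the threshold. It had 468, 385 and 168 FPKM in Med23KO libraries 1, 2 and 3, against 117, 98.3 and 52.0 FPKM in Ctrl libraries. The groups did not overlap, yet each spread widely, and library 3 was the lowest in both. Means were 341 ± 155 FPKM in Med23KO and 89.0 ± 33.4 FPKM in Ctrl cells (SD, n = 3 each). The log2 fold change was 1.88 (SE 0.425, 95% interval 0.89 to 2.87, limma adjusted p = 0.0652), the 25th largest positive value of all genes tested. It was past the threshold without Med23KO library 3 (log2 fold change 2.32, adjusted p = 0.00635), without both libraries numbered 3 (1.98, adjusted p = 0.000435) and with equal medians (1.90, adjusted p = 0.0375), quantile normalization (adjusted p = 0.0468), rescaling without Rmrp (adjusted p = 0.0313) or library weights (adjusted p = 0.0106). The largest adjusted p over the refits was 0.255, without Med23KO library 2. In the authors' deposited table Igf2 had q = 0.000695.

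Igf2 (mm10 chromosome 7, positions 142650766 to 142666816, minus strand) shares its locus with other gene models. Gm49394 overlaps it on the same strand and has no row of its own among the genes used here. Its antisense gene Igf2os had 1.02, 1.07 and 0.318 FPKM in Med23KO libraries and 0.626, 0.272 and 0.282 FPKM in Ctrl libraries, far below Igf2 in each. The libraries were made with a strand-specific kit, per the labels' protocols, but whether the counting used strand is not given in the sources used here.

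The ligand pool was almost wholly Igf2 transcript in both groups. Igf1 made up 0.854%, 1.20% and 1.66% of the summed ligand FPKM in Med23KO libraries 1, 2 and 3, and 0.453%, 0.775% and 0.828% in Ctrl libraries. These shares are levels within a library and carry no test.

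The genes whose levels followed each ligand most closely over the 6 libraries were taken by Pearson's r of log2(FPKM + 1) among genes that averaged 5 FPKM or more. For Igf1 they were the integrin gene Itgb5 (r = 0.997), Pcdhb16 (0.995), Hcfc2 (0.995) and Rhoq (0.995). For Igf2 they were 2900026A02Rik (r = 0.998), Gas6, which encodes a ligand of the TAM receptors (0.998), the ferrochelatase gene Fech (0.998) and Nipa1 (0.997). Gas6 had 452, 382 and 200 FPKM in Med23KO libraries and 165, 130 and 90.1 FPKM in Ctrl libraries. These are not alone: 14 genes exceeded r = 0.99 for Igf1 and 23 for Igf2, and all points share the genotype difference and the low values of library 3.

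Of the receptor genes, Igf2r had its higher values in the Med23KO libraries, and Igf1r overlapped between groups. Igf2r (chromosome 17, positions 12682406 to 12769664, minus strand) had 65.6, 66.1 and 45.9 FPKM in Med23KO libraries 1, 2 and 3, against 42.5, 35.3 and 31.7 FPKM in Ctrl libraries. The groups did not overlap, although Med23KO library 3 came within a few FPKM of Ctrl library 1. The log2 fold change was 0.67 (SE 0.172, 95% interval 0.27 to 1.07) and missed the threshold, with a limma adjusted p of 0.0852. As with Igf2, it was past the threshold without Med23KO library 3 (0.84, adjusted p = 0.0113), without both libraries numbered 3 (adjusted p = 0.00827), with equal medians (adjusted p = 0.0364), quantile normalization (adjusted p = 0.0485), rescaling without Rmrp (adjusted p = 0.0262) or library weights (adjusted p = 0.0107), and it had q = 0.000695 in the authors' deposited table. The highest adjusted p over the refits was 0.308, without Med23KO library 2. Airn, the noncoding RNA gene that runs antisense over part of Igf2r, had 19.7, 20.75 and 12.25 FPKM in Med23KO libraries and 16.5, 11.99 and 9.30 FPKM in Ctrl libraries, and its part in the Igf2r values was not tested.

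Igf1r (chromosome 7, positions 67952827 to 68233668, plus strand), which encodes the signalling receptor, had 35.0, 32.2 and 22.6 FPKM in Med23KO libraries 1, 2 and 3, against 29.8, 27.2 and 22.4 FPKM in Ctrl libraries. The groups overlapped widely, and the library numbered 3 was the lowest in each. Its log2 fold change was 0.16, with a 95% interval from -0.27 to 0.58 (limma adjusted p = 0.699). Within a library, the ratio of Igf2r to Igf1r FPKM does not depend on how that library was scaled. It was 1.87, 2.05 and 2.04 in Med23KO libraries 1, 2 and 3, against 1.43, 1.30 and 1.42 in Ctrl libraries. Library 3, low in both receptor genes, had a ratio close to that of its group. The ratio was looked at after the values of both genes were known and carries no test.

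**Figure D2:**
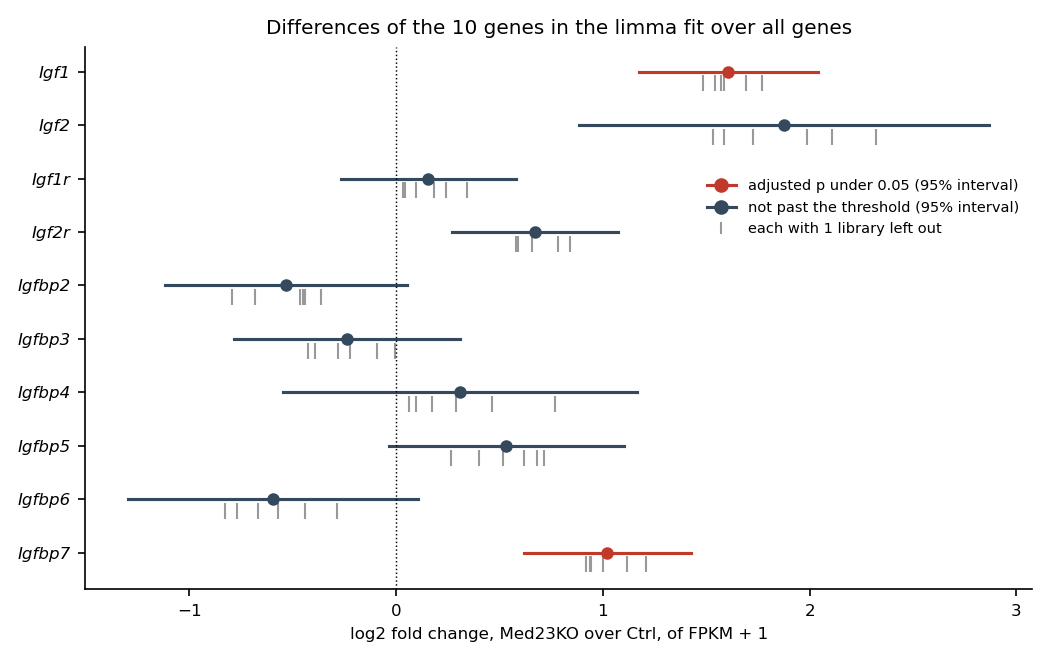
Log2 fold change of Med23KO over Ctrl for each IGF gene, on the log2(FPKM + 1) scale; dots are estimates, lines their 95% intervals in limma, and grey ticks the estimates with 1 library left out. Igf1 and Igfbp7, in red, passed the threshold, and the intervals of Igf2 and Igf2r lay above 0 without passing after adjustment.

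Igfbp7 encodes a secreted protein related to the binding proteins that holds IGFs weakly. It had 191, 176 and 150 FPKM in Med23KO libraries 1, 2 and 3, against 72.6, 109 and 74.4 FPKM in Ctrl libraries. The groups were well apart, and here library 3 was close to the rest of its group. Means were 172 ± 20.9 FPKM in Med23KO and 85.3 ± 20.4 FPKM in Ctrl cells (SD, n = 3 each), a ratio of 2.02. On the log2 scale the change was 1.02 (95% interval 0.62 to 1.43, limma adjusted p = 0.0303). The call was lost when scarce genes were kept in the test (adjusted p = 0.0680) and without Med23KO library 1 (0.104), Med23KO library 2 (0.155), Ctrl library 1 (0.0833) or Ctrl library 3 (0.0908), while the log2 fold change kept between 0.80 and 1.21 in all limma refits. Igfbp7 (chromosome 5, positions 77349240 to 77408041, minus strand) overlaps the RNA polymerase II subunit gene Polr2b on the other strand. Polr2b had 37.2, 42.3 and 45.5 FPKM in Med23KO libraries and 43.1, 45.1 and 51.2 FPKM in Ctrl libraries (limma adjusted p = 0.522).

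The other abundant binding protein genes overlapped between groups. They lie on chromosome 1 (Igfbp5, 72857932 to 72874884, minus strand) and chromosome 11 (Igfbp4, 99041244 to 99054392, plus strand, and Igfbp3, 7206086 to 7213923, minus strand). Igfbp5, the binding protein gene most tied to myoblast differentiation in mouse cells, had 145, 114 and 169 FPKM in Med23KO libraries 1, 2 and 3, against 66.9, 125 and 109 FPKM in Ctrl libraries. Its log2 fold change was 0.53 (95% interval -0.04 to 1.10, limma adjusted p = 0.284), and it was unlike most of the set in that library 3 was not the lowest in either group. Igfbp4, whose product restrains IGF action until proteases cut it, had 135, 129 and 50.01 FPKM in Med23KO libraries and 74.7, 95.5 and 63.8 FPKM in Ctrl libraries. Med23KO library 3 thus lay below every Ctrl library and the other Med23KO libraries above them. The log2 fold change of Igfbp4 was 0.31 (95% interval -0.55 to 1.16, limma adjusted p = 0.708). Without Med23KO library 3 it was 0.77 (adjusted p = 0.0282), and without both libraries numbered 3 it was 0.64 (adjusted p = 0.0207). Igfbp3, the main carrier of IGFs in blood, had 121, 98.9 and 67.1 FPKM in Med23KO libraries and 134, 112 and 88.3 FPKM in Ctrl libraries. Its log2 fold change was -0.24 (95% interval -0.78 to 0.31, limma adjusted p = 0.643), and without Med23KO library 3 it was -0.00.

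Igfbp2 (chromosome 1, positions 72824503 to 72852474, plus strand) and Igfbp6 (chromosome 15, positions 102144362 to 102149511, plus strand) were scarce, and their estimates lay below 0. Igfbp2 had 1.37, 1.13 and 2.87 FPKM in Med23KO libraries 1, 2 and 3, against 2.18, 3.27 and 3.36 FPKM in Ctrl libraries. Library 3 was the highest in both groups, the reverse of most IGF genes. The log2 fold change was -0.53 (95% interval -1.12 to 0.05, limma adjusted p = 0.299), and it passed without Med23KO library 3 (-0.79, adjusted p = 0.0417) and with library weights (adjusted p = 0.0448). Igfbp6, which prefers IGF-II as a ligand, had 2.05, 1.33 and 0.931 FPKM in Med23KO libraries and 4.55, 2.26 and 1.61 FPKM in Ctrl libraries. The groups overlapped through Med23KO library 1, and the log2 fold change was -0.59 (95% interval -1.29 to 0.11, limma adjusted p = 0.335).

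The authors' deposited table, made with Cuffdiff, called 7 of the 10 genes at q under 0.05, where it called 15.7% of the 13123 genes it tested, 8.61% higher and 7.04% lower. Igf1, Igf2, Igf2r and Igfbp7 each had q = 0.000695 there, Igfbp4 q = 0.00346 and Igfbp5 q = 0.00243, all higher in Med23KO. Igfbp6 had q = 0.0137 and was lower in Med23KO, while Igfbp2 (q = 0.0510), Igfbp3 (q = 0.218) and Igf1r (q = 0.355) were not called in the authors' deposited table.

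Per unit of transcript length, the order of levels differed between groups. In Med23KO cells the means ran from Igf2 (341 FPKM) through Igfbp7 (172), Igfbp5 (143), Igfbp4 (105), Igfbp3 (95.8), Igf2r (59.2) and Igf1r (29.9) to Igf1 (3.85), Igfbp2 (1.79) and Igfbp6 (1.44). In Ctrl cells they ran from Igfbp3 (111.5 FPKM) through Igfbp5 (100.4), Igf2 (89.0), Igfbp7 (85.3), Igfbp4 (78.0), Igf2r (36.5) and Igf1r (26.5) to Igfbp2 (2.94), Igfbp6 (2.80) and Igf1 (0.578). Neighbours among the 5 most abundant genes overlapped in range in each group, so the order of neighbours is not settled. In Med23KO cells, the lowest values of Igf2 (168 FPKM) and Igfbp7 (149.5) lay above the highest of Igfbp4 (135) and Igfbp3 (121). Between neighbours, ranges did not overlap at the steps to Igf2r, to Igf1r and from Igf1r to the scarce genes in either group. Igfbp4, not the neighbour of Igf2r in Med23KO cells, did overlap it there (lowest Igfbp4 50.01 FPKM, highest Igf2r 66.1 FPKM). Igf1 lay apart from Igfbp6 in Ctrl cells and overlapped Igfbp2 in Med23KO cells.

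Among binding protein transcripts the share of Igfbp7 was larger in Med23KO cells. It was 32.0%, 33.8% and 34.0% of the summed binding protein FPKM in Med23KO libraries 1, 2 and 3, against 20.4%, 24.4% and 21.8% in Ctrl libraries. The share of Igfbp3 was 20.4%, 19.0% and 15.3% in Med23KO libraries and 37.8%, 25.0% and 25.9% in Ctrl libraries. The shares of Igfbp4 and Igfbp5 overlapped between groups, at 11.4% to 24.7% and 22.0% to 38.5% in Med23KO, and 18.7% to 21.4% and 18.8% to 32.1% in Ctrl libraries. Summed ligand FPKM over summed binding protein FPKM was 0.794, 0.749 and 0.389 in Med23KO libraries and 0.330, 0.222 and 0.154 in Ctrl libraries, so that Med23KO library 3 lay near Ctrl library 1. These ratios within a library are descriptions of transcript levels and carry no test.

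**Figure D3:**
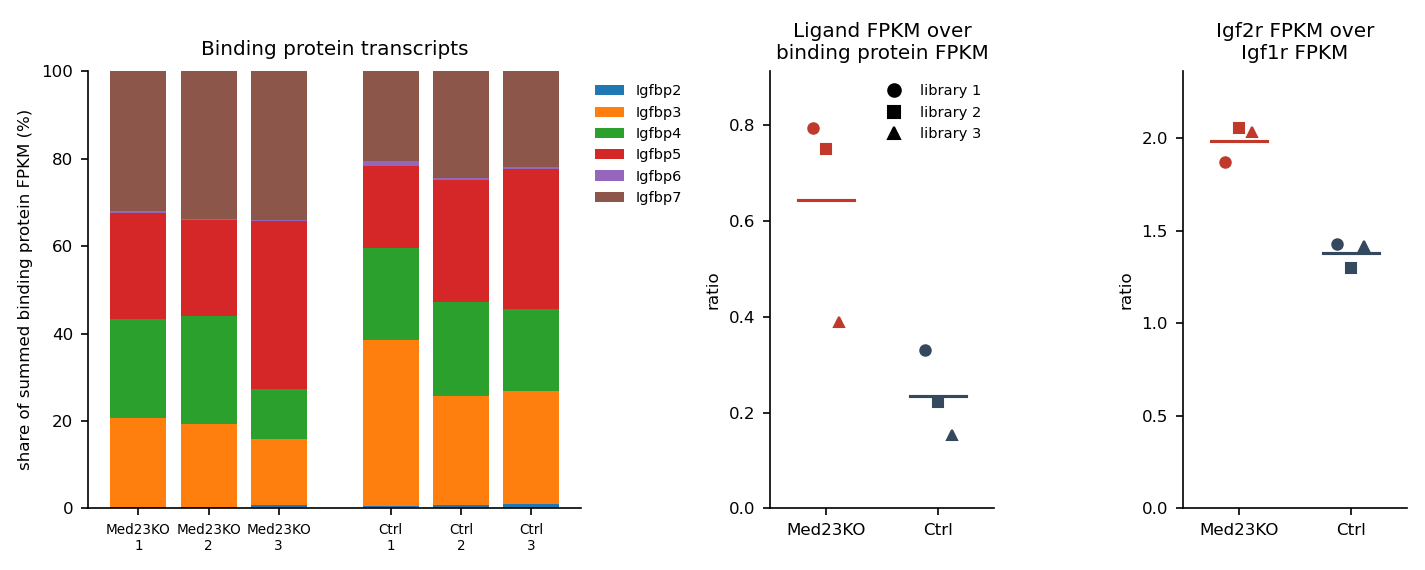
Left, the share of each binding protein gene in the summed binding protein FPKM of each library (%), Med23KO left of Ctrl; middle and right, the ratios of ligand to binding protein FPKM and of Igf2r to Igf1r FPKM, with points for libraries and lines for means (n = 3). Igfbp7 takes 32.0% to 34.0% of the bars in Med23KO and 20.4% to 24.4% in Ctrl, and the receptor ratio is near 2 in Med23KO libraries.

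For the genes whose groups did not overlap, the sequence around a start site is shown, from 250 bases before to 50 after it, 5′ to 3′ on the gene's strand, from RefSeq on GRCm38.p6, the assembly named mm10. All 10 genes matched, with 14 such windows. Capitals mark matches, on either strand, to the E-box CAGCTG that myogenic factors bind, the ETS motif CCGGAA, the EGR motif GCGNGGGCG, the TATA box TATAAA or the CArG box of serum response factor. Igf1 at chr10:87860861-87861160 (plus strand), Igf2 at chr7:142661222-142661521 (minus strand), Igf2r at chr17:12769657-12769956 (minus strand) and Igfbp7 at chr5:77407996-77408295 (minus strand) read as follows.
Igf1: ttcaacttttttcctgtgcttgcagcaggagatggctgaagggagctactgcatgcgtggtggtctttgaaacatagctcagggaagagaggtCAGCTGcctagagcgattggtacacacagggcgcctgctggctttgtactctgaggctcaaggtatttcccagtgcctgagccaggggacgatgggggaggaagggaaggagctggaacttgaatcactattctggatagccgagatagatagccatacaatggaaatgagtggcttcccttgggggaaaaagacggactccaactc
Igf2: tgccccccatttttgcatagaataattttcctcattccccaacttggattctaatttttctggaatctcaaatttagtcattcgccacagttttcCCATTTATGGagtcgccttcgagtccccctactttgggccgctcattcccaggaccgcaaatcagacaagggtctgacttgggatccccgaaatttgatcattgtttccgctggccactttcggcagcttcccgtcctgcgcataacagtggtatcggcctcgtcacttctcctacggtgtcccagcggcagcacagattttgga
Igf2r: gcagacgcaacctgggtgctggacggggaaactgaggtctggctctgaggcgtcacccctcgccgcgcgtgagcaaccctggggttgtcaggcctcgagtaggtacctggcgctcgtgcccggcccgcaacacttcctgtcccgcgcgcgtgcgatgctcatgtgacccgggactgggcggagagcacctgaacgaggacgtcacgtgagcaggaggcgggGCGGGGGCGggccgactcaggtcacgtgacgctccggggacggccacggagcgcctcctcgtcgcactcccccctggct
Igfbp7: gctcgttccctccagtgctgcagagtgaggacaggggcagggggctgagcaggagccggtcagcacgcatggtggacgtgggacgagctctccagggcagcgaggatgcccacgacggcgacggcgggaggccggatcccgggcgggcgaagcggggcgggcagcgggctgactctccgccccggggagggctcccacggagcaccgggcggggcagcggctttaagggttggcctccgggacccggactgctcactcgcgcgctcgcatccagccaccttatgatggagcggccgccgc
The Igf1 window held 1 CAGCTG, found in 16.3% of all 32851 windows. The Igf2 window, 1 of 4 for this gene and the only one of them with a match, held a CArG box, found in 1.63% of all windows. The Igf2r window held 1 GCGNGGGCG, found in 5.55%, and the Igfbp7 window held none of the 5 motifs. Of the other member windows, those of Igfbp4 and Igfbp6 held TATAAA (13.6% of all windows) and that of Igfbp3 held CCGGAA (14.9%). Matches describe these letters and no binding was measured. The FPKM values cover whole genes, so which start site was in use is not known from them.

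Other genes of the pathway were read from the same test. Of 64 listed genes beyond the 10, 52 were tested, 1 rose and 2 fell, where 1.49% of all genes tested rose and 1.42% fell. The median log2 fold change of the 52 was -0.00, against -0.03 over all genes tested. Among extracellular genes of the IGF system, 2 of 6 tested fell and 0 rose. Stc2, whose secreted product blocks the protease that cuts IGFBP4, had 1.60, 1.16 and 1.80 FPKM in Med23KO libraries against 3.71, 4.24 and 3.71 FPKM in Ctrl libraries (log2 fold change -0.96, limma adjusted p = 0.0233). Esm1, a secreted proteoglycan gene better known from endothelium, had 1.44, 2.38 and 1.62 FPKM in Med23KO libraries against 9.44, 6.48 and 4.43 FPKM in Ctrl libraries (log2 fold change -1.43, limma adjusted p = 0.0317). Both were scarce, and both calls were lost when scarce genes were kept (adjusted p = 0.0584 for Stc2 and 0.0786 for Esm1). Over fits without 1 library, the adjusted p ran from 0.00954 to 0.129 for Stc2, which passed only without Med23KO library 3. It ran from 0.0229 to 0.149 for Esm1, which passed only without Med23KO library 3 or Ctrl library 3.

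Among receptor-proximal and PI3K-AKT genes, 1 of 24 tested rose and 0 fell, where 1.49% and 1.42% of all genes tested did so. Their median log2 fold change was 0.08. Values of 3 genes that did not pass, chosen after they were seen, follow. Pik3r1, the main regulatory subunit of PI3-kinase, had 29.8, 28.7 and 30.0 FPKM in Med23KO libraries against 18.8, 21.4 and 22.4 FPKM in Ctrl libraries (log2 fold change 0.48, limma adjusted p = 0.0511). Its adjusted p was 0.0442 without Med23KO library 3 and 0.0262 without both libraries numbered 3, and from 0.101 to 0.206 without any other library. With all libraries, Pik3r1 also passed among genes averaging 5 FPKM or more (0.0457) and with quantile normalization (0.0465). It passed as well without Rmrp (0.0397) and with library weights (0.0164). The adaptor gene Shc1 had 114, 101 and 65.7 FPKM in Med23KO libraries against 56.6, 59.1 and 46.1 FPKM in Ctrl libraries (log2 fold change 0.76, limma adjusted p = 0.101). Without Med23KO library 3 its log2 fold change was 0.99 (adjusted p = 0.00673), and it also passed without both libraries numbered 3 (adjusted p = 0.00318), with equal medians (0.0429), without Rmrp (0.0339) and with library weights (0.0216). Irs1, which couples the receptor to PI3-kinase, had 76.5, 67.8 and 40.0 FPKM in Med23KO libraries against 40.4, 32.0 and 25.5 FPKM in Ctrl libraries (limma adjusted p = 0.126). Med23KO library 3 lay just below Ctrl library 1 for Irs1, and without it the log2 fold change was 1.14 (adjusted p = 0.0113). The log2 fold change of Irs1 was 0.98 (adjusted p = 0.00518) without both libraries numbered 3, and Irs1 also passed with library weights (adjusted p = 0.0160).

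In the mTOR and FOXO branch, 0 of 22 tested genes passed by limma, and their log2 fold changes had a median of -0.05. At an unadjusted p under 0.05, 1 was higher and 2 were lower, while the authors' deposited table called 1 higher and 1 lower. The smallest adjusted p were those of Mlst8, at 6.75 ± 0.482 FPKM in Med23KO and 8.70 ± 0.835 FPKM in Ctrl cells (limma adjusted p = 0.183, SD, n = 3 each), and Rptor, at 17.8 ± 2.22 FPKM in Med23KO and 23.4 ± 3.08 FPKM in Ctrl cells (limma adjusted p = 0.193). Foxo4 followed, at 29.4 ± 9.59 FPKM in Med23KO and 18.6 ± 2.49 FPKM in Ctrl cells (log2 fold change 0.58, limma adjusted p = 0.240). For Foxo4 the log2 fold change was 0.86 without Med23KO library 3 (adjusted p = 0.0128) and 0.75 without both libraries numbered 3 (adjusted p = 0.00837). Mlst8 and Rptor encode parts of mTOR complexes and Foxo4 a transcription factor that AKT holds out of the nucleus. The groups did not overlap in 3 of the 22, all lower in Med23KO. Among all 12336 genes tested, 24.7% did not overlap in either direction, 1233 genes higher and 1813 lower.

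**Figure D4:**
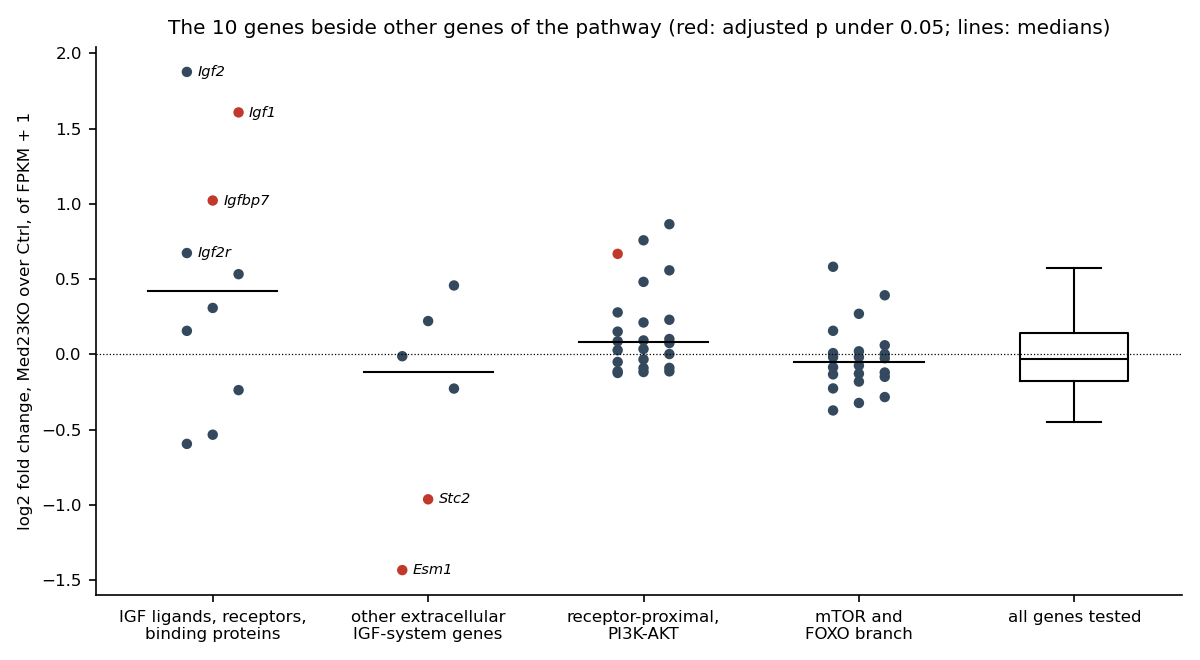
Log2 fold change of Med23KO over Ctrl (log2(FPKM + 1) scale) for the 10 IGF genes, 3 lists of other pathway genes and, as a box with its median, quartiles and 5th to 95th percentiles, all genes tested. Red points passed the threshold and lines are medians; the IGF genes spread from -0.59 to 1.88, and the mTOR and FOXO genes from -0.37 to 0.58.

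Markers of other cells and states moved in part with the IGF genes. Muscle differentiation markers summed to 439 to 453 FPKM in Med23KO and 227 to 292 FPKM in Ctrl libraries. Of these, 4 of 18 tested rose, where 1.49% of all genes tested rose. Actn2, among those that rose, and Casq2 and Tnnc2 entered the test only through their Med23KO values. Their Ctrl means were 0.804, 0.667 and 0.458 FPKM, below the filter, so the counts for this list lean towards higher genes. Log2 fold changes were above 0 in 16 of the 18, with a median of 0.98. The groups did not overlap in 13 of the 18, 12 higher and 1 lower. Of all 12336 genes tested, 24.7% did not overlap in either direction, 1233 higher and 1813 lower. Among the 18, the authors' deposited table called 13 higher and 1 lower, where it called 8.61% of the genes it tested higher and 7.04% lower. The myogenin gene Myog, which marks entry into differentiation, had 84.5, 89.4 and 76.0 FPKM in Med23KO libraries against 43.8, 32.2 and 14.6 FPKM in Ctrl libraries (limma adjusted p = 0.0609). Fibroblast and fibro-adipogenic markers summed to 307 to 469 FPKM in Med23KO and 231.5 to 299.5 FPKM in Ctrl libraries. Most of each sum was the collagen gene Col3a1, at 183 to 286 FPKM in Med23KO and 138 to 182 FPKM in Ctrl libraries. All 12 of the 12 tested fibroblast markers had a log2 fold change above 0, with a median of 0.48. By limma, 0 passed (4 higher at an unadjusted p under 0.05, and 6 higher in the authors' deposited table). The groups did not overlap in 4 of the 12, all higher, where 24.7% of all genes tested did not overlap in either direction. Pdgfra, a defining marker of fibro-adipogenic cells, had 3.78, 2.41 and 2.66 FPKM in Med23KO libraries and 2.65, 1.28 and 1.70 FPKM in Ctrl libraries. Pi16 was near the floor in both groups, at 0 in each Med23KO library and 0.0352, 0.0263 and 0 FPKM in Ctrl libraries. In bulk RNA, more cells of a type and more RNA per cell cannot be told apart, and the part of these markers in the IGF values was not tested.

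Endothelial markers summed to 7.69 to 10.5 FPKM in Med23KO and 7.45 to 15.6 FPKM in Ctrl libraries, and pericyte and smooth muscle markers to 16.3 to 26.4 and 21.8 to 33.4 FPKM. Blood cell markers summed to 13.4 to 40.3 FPKM in Med23KO and 14.5 to 27.3 FPKM in Ctrl libraries, most of it Lyz2, with Hbb-bs listed at 0 in all 6. Schwann cell markers summed to 28.7 to 145 FPKM in Med23KO and 19.2 to 53.3 FPKM in Ctrl libraries, mostly from Ngfr. None of these 4 marker lists had a gene past the threshold by limma (0 of 12 tested), with 1 lower pericyte gene at an unadjusted p under 0.05. Among these 12 genes, the authors' deposited table called 1 Schwann cell gene higher and 2 pericyte genes lower. It also called the endothelial gene Tek lower (q = 0.0235), which lay below the 1 FPKM filter. Tek had 0.595, 0.537 and 0.997 FPKM in Med23KO libraries and 1.14, 1.20 and 1.20 FPKM in Ctrl libraries.

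**Figure D5:**
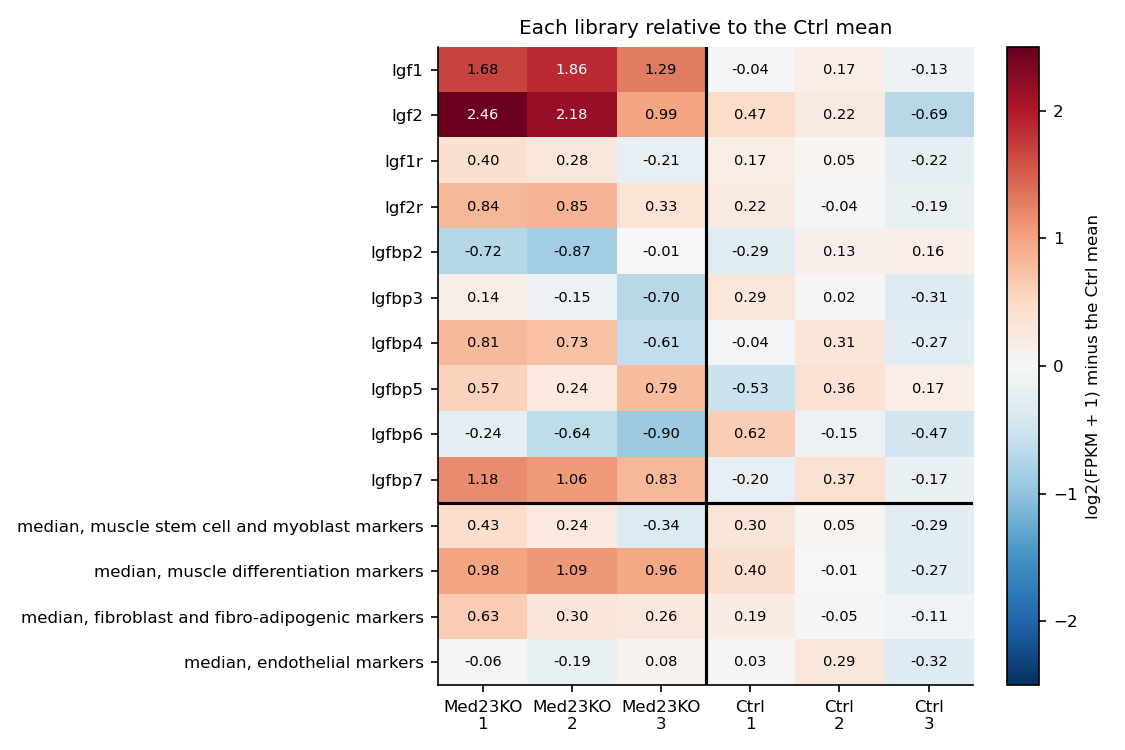
Log2(FPKM + 1) of each IGF gene in each library minus its Ctrl mean, above the medians of 4 marker lists on the same scale, with Med23KO libraries on the left. Igf1 is 1.29 to 1.86 above the Ctrl mean in Med23KO libraries, Igf2 0.99 to 2.46, and Med23KO library 3 is the palest of its group for Igf1, Igf2 and Igf2r.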

How the data were processed

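Per the submitters' processing notes, reads were handled with FastQC, cutadapt, STAR and Cuffdiff on mm10; versions, annotation and any use of strand in counting: not given in the sources used here. The authors deposited 1 table with the FPKM of 6 libraries, 2 group values in FPKM, and Cuffdiff p-values, q-values and a test statistic (a score that was not used). The 10 genes and all lists were chosen with earlier results of these data known. Values were taken as log2(FPKM + 1); genes averaging 1 FPKM or more across libraries were tested with limma 3.58.1 in R 4.3.3 (mean-variance trend, genotype as factor, two-sided, Benjamini-Hochberg over 12336 genes, threshold 0.05). FPKM are not counts and depth is unknown: between any 2 libraries, no more than 19.2% of genes under 0.2 FPKM had the same ratio to within 0.03 (log2), so whole reads were not recovered. An exact permutation test of 3 against 3 cannot go below p = 0.1. All 10 genes and Med23 are named whatever their values, then pathway genes past the threshold, or the 3 with the smallest adjusted p where none passed, and the 4 genes most like each ligand. The test was checked on simulated data. Coordinates come from GENCODE vM21, which uses the mm10 assembly. Values of some single genes are not reported here.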

Additional observations from a re-analysis of the deposited data

How the results depend on the processing

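The direction of all 10 IGF genes was the same under every alternative run; calls moved, and the cause was not tested. The IGF genes called higher, 2 here, numbered 1 with no filter on low values and 1 among genes averaging 5 FPKM or more, where Igf1, Igfbp2 and Igfbp6 were not tested. They numbered 4 under quantile normalization, equal medians, rescaling without Rmrp and library weights, 6 by the authors' q-values, and 0 to 5 with 1 library left out. Without both libraries numbered 3, an alternative chosen after seeing the data, they numbered 5. Those called lower, 0 here, numbered 1 with library weights, 1 by the authors' q-values and 0 to 1 with 1 library left out.

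Pathway genes called higher, 1 here, numbered 2 with no filter, with the 5 FPKM filter, under quantile normalization and with equal medians, 3 without Rmrp, 5 with library weights, 6 without both libraries numbered 3, 7 by the authors' q-values and 0 to 5 with 1 library left out. Those called lower, 2 here, numbered 0 with no filter and 0 to 2 with 1 library left out. They numbered 0 with the 5 FPKM filter, where Stc2 and Esm1 were not tested. All genes called higher and lower numbered 73 and 84 with no filter, 298 and 201 under quantile normalization, 363 and 205 with equal medians, 489 and 157 without Rmrp, 850 and 850 with library weights, 727 and 482 without both libraries numbered 3, 1130 and 924 by the authors' q-values, and 3 to 749 and 10 to 395 with 1 library left out.

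The labels do not say that a replicate number marks a shared animal, batch or day. Deviations from the group means correlated at 0.44, -0.02 and 0.56 between same-numbered libraries 1, 2 and 3, and Med23KO library 2 correlated best with Ctrl library 1 (0.34), so the numbers were not taken to pair the samples. Same-numbered libraries did have the highest shares of low genes at 1 common ratio, at 19.2%, 13.99% and 8.13% for numbers 1, 2 and 3, against 2.81% to 5.89% for the other pairs. With the replicate number as a block, 4 IGF genes were higher, among them Igf2 (adjusted p = 0.000196) and Igf2r (0.00398), and 2 lower, Igfbp3 (0.0446) and Igfbp6 (0.0326). Among pathway genes 7 were higher and 5 lower, and among all genes 1180 and 1577.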

Other observations

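Some genes of the IGF system lay below the 1 FPKM filter and were not tested. Of these, Pappa and Trim63 are given because their values stood apart, with Ctrl values near 0. How often other genes below the filter stood apart is not given here, and the authors' deposited table called neither. Pappa, which encodes the protease that cuts IGFBP4, had 0.270, 0.207 and 0.0742 FPKM in Med23KO libraries 1, 2 and 3, against 0.0312, 0.0337 and 0.0266 FPKM in Ctrl libraries. Trim63, the ubiquitin ligase gene of muscle atrophy that FOXO factors induce, had 0.693, 0.668 and 0.664 FPKM in Med23KO libraries, against 0.0485, 0.0755 and 0.0404 FPKM in Ctrl libraries. Fbxo32, the other FOXO-induced ligase gene of muscle atrophy, was tested and had 5.98 ± 0.893 FPKM in Med23KO and 6.08 ± 0.717 FPKM in Ctrl cells (SD, n = 3 each; limma adjusted p = 0.951). Igfbp1 and Igfbpl1 were listed at 0 in all 6 libraries.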
